A study of Mus musculus with 23 samples.

Results

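A group of genes in A404 cells stood near its starting level after 48 h of retinoic acid and above it after 96 h, and these late genes are described here. A late gene was a gene symbol whose mean log2 ratio differed by at most 0.4 between RA48 and Control and whose RA96 mean lay at least 0.8 above its RA48 mean. Of 8683 genes with a symbol of their own on the array, 140 met both thresholds. Inhba, Sytl2, Zfp942 and Zfp943 were set aside by name, which left 136 late genes. The late genes were thus chosen by their measured levels in the Control, RA48 and RA96 arrays. For that reason the rise between 48 h and 96 h is given as a description, without a test, and the Puromycin arrays are the ones that the choice did not use.

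A404 is a clone of P19, a mouse embryonal carcinoma line that can be driven towards smooth muscle, so all groups stem from 1 clone. As background, resistance to puromycin in A404 cells is driven by the promoter of Acta2, which encodes smooth muscle alpha-actin, so the drug kills cells that do not use that promoter. The Control group (n = 6 arrays) held undifferentiated cells, harvested near confluence at time 0. The RA48 group (n = 5) and the RA96 group (n = 6) had 48 h and 96 h of 1 µmol/L all-trans retinoic acid, added to cultures far from confluence. Puromycin cultures (n = 6) received retinoic acid for 96 h and puromycin for the following 48 h, with no word in the labels on whether retinoic acid was kept. Retinoic acid and culture density therefore cannot be told apart in comparisons with Control, nor can puromycin and 48 h of further culture in comparisons with RA96. Each array set red-labelled RNA of A404 cells against green-labelled RNA of pooled whole embryos of day 17.5, and a level below is the log2 ratio of the cells over the embryos, where 0 means equal signal. The base of the deposited logarithm is not stated and was read as 10, so sizes and folds rest on that reading. In bulk RNA like this, fewer cells of a type and less RNA per cell cannot be told apart.

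Retinoic acid acts through nuclear receptors that sit on DNA and switch their direct targets on early. Genes that move later commonly depend on factors made in the meantime, among them secreted ligands, transcription factors and matrix proteins. Maturing smooth muscle cells are known for matrix and its modifying enzymes, for integrins, and for the actin-binding proteins of focal adhesions and the contractile apparatus.

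Acta2 checked the protocol. Its mean level was -4.90 ± 0.65 in Control, -0.34 ± 0.14 in RA48, 1.87 ± 0.13 in RA96 and 2.40 ± 0.26 in Puromycin (SD). Sox2, a factor of undifferentiated cells, had means of 5.09, 2.87, 0.63 and -0.60 in the same order. Over 5 measured markers of undifferentiated cells the medians were 3.25, 1.32, 0.63 and -0.45. Nanog, Utf1 and Dnmt3b also averaged lower in Puromycin than in Control, while Zfp42 was near level at 1.19, 1.32, 1.16 and 1.10. The median of 8 measured smooth muscle markers was -2.24, -0.87, -0.01 and -0.68, and 3 of them stood above the embryo pool in Puromycin, against 4 in RA96. Among them Myl9, a regulatory light chain of smooth muscle myosin, averaged -3.02, -0.69, 1.35 and 1.55, and Myh11, the smooth muscle myosin heavy chain, -1.14, -1.08, -0.77 and -0.95. Cnn1 averaged -0.83, 0.14, 0.65 and 0.34, and Mylk -1.37, -0.47, 0.55 and -1.20. Acta2, Myl9, Smtn, Actg2 and Des averaged higher in Puromycin than in RA96, and Cnn1, Mylk and Myh11 lower. In the first array set described below, Cnn1 was called lower than in RA96 (-0.58, limma adjusted p = 0.00477). Medians of the 23 arrays lay between -0.0775 and 0.0203.

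Within each group the arrays fell into 2 sets that no label names, and the sets bear on every result below. They were found from the first principal component of the arrays' deviations from their group means, which carried 48.8% of that variance, against 10.7% for the next. The first set held 11 arrays, namely replicates 1 to 3 of Control, RA48 and Puromycin and replicates 1 and 3 of RA96. The second set held the other 12. RA48 thus had 3 arrays in the first set and 2 in the second, whereas RA96 had 2 and 4.

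The late genes differed between the sets mostly before 96 h. Their median level was higher in the second set than in the first by 0.44 in Control, 1.10 in RA48, 0.15 in RA96 and 0.17 in Puromycin, while the same median over all genes was at most 0.06. In RA48, 121 of the 136 were higher in the second set, while higher and lower values were near balance over all genes (50.04% higher). These values helped to choose the genes, and the uneven split of RA48 and RA96 arrays over the sets favours genes that are higher in the second set, so nothing is read from that contrast. Within the first set the median RA48 minus Control difference was -0.10 and the median RA96 minus RA48 difference 1.26. Within the second set, with 2 RA48 arrays, these medians were 0.44 and 0.50. The rule bounds the difference at 48 h over all arrays, so a higher value in 1 set goes with a lower value in the other. These medians are a description, and no timing is read from them.

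At 48 h, 107 late genes lay within 0.4 of Control in the first set and 63 did in the second, where 71 already exceeded Control by more than 0.4. The rise of at least 0.8 between 48 h and 96 h was met by 116 genes in the first set, by 35 in the second and by 28 in both. RA96 was above RA48 in both sets for 128. The same arrays chose the genes, and these counts were not made over all genes, so they are a description. The whole rule held within both sets for 21 of 136 genes, and for 92 and 30 within the first and the second set. Of all 8683 genes it held for 23 within both sets, and for 202 and 64 within the first and the second. What separates the sets was not tested.

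**Figure D1:**
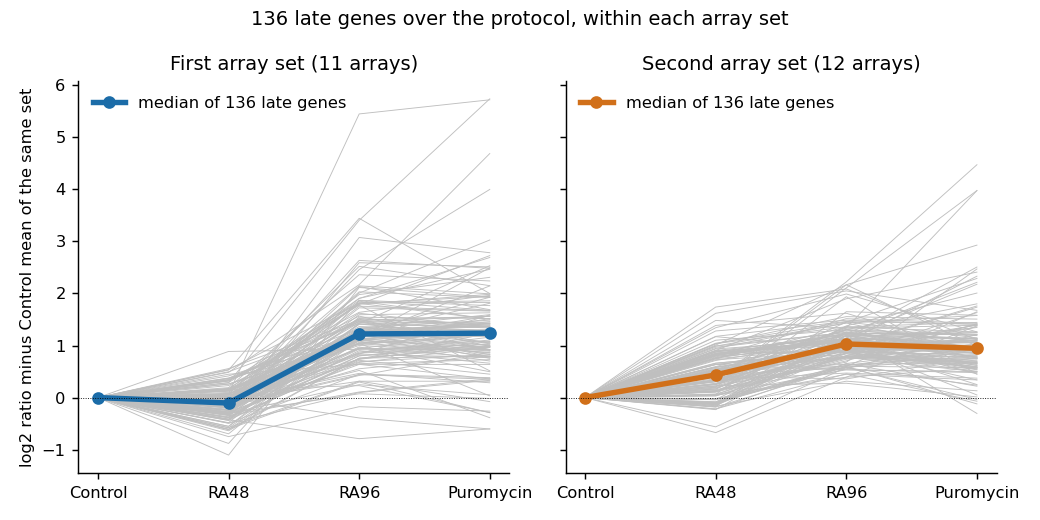
Log2 ratio of each of the 136 late genes (grey lines) at the 4 points of the protocol, as the mean of its arrays within a set minus the Control mean of the same set, with the median over genes in colour (left, the first set; right, the second). The median in RA48 is -0.10 in the first set and 0.44 in the second.

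The 21 genes that were flat at 48 h and up at 96 h in both sets come first. They were Ptgs2, Tm4sf1, Pcolce, Tnfsf13b, Osmr, Nupr1, Timp1, Pla2g4a, Prrx1, Plod2, Adamtsl1, Snai2, Pde4b, Nppa and, named after their values were seen, AU018091, 2310067E19Rik, Lratd2, Stom, Esr1, Mtus1 and Tmem151b. Several encode parts of the prostaglandin pathway (Ptgs2, Pla2g4a), of the collagen machinery (Pcolce, Plod2) or of cytokine signalling (Osmr, Tnfsf13b).

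Ptgs2, the inducible cyclooxygenase that starts prostaglandin synthesis, was one of them (chr1:150100031-150108234, GRCm38.p6). Its lowest, median and highest levels were -0.83, 0.55 and 1.10 in Control. The 5 RA48 arrays read 0.99, 1.20, 1.02, 0.34 and 0.23. In RA96 the levels were 1.98, 2.37 and 4.36, and in Puromycin 3.83, 5.43 and 6.57. Every RA96 array thus stood above every RA48 and Control array, the first set higher than the second.

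Tm4sf1, a tetraspanin-like membrane protein, had levels of -2.94, -2.24 and -1.47 in Control. Its RA48 arrays read -2.88, -2.70, -1.96, -1.78 and -1.84. Levels were -0.30, 0.06 and 0.69 in RA96. RA48 lay within the Control range and RA96 above both, so the rise between 48 h and 96 h averaged 2.32 over all arrays, 2.61 in the first set and 1.89 in the second.

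Osmr, the oncostatin M receptor subunit, varied widely before 96 h, between -2.14 and -0.03 in Control and between -2.29 and -0.36 in RA48. In RA96 it lay between 0.24 and 1.03, above every earlier array. Pcolce, which speeds the processing of procollagen ends, was tighter, with -2.40 to -1.45 in Control, -2.09 to -1.65 in RA48 and -0.47 to 0.34 in RA96. Tnfsf13b, the B-cell survival cytokine BAFF, lay between -0.23 and 0.46 in Control, between -0.37 and 0.37 in RA48 and between 1.07 and 2.10 in RA96. In each of them the RA96 arrays lay above the RA48 arrays, by an average of 1.74 and 1.86 within the first and the second set for Osmr, 1.60 and 1.83 for Pcolce, and 2.31 and 1.32 for Tnfsf13b.

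**Figure D2:**
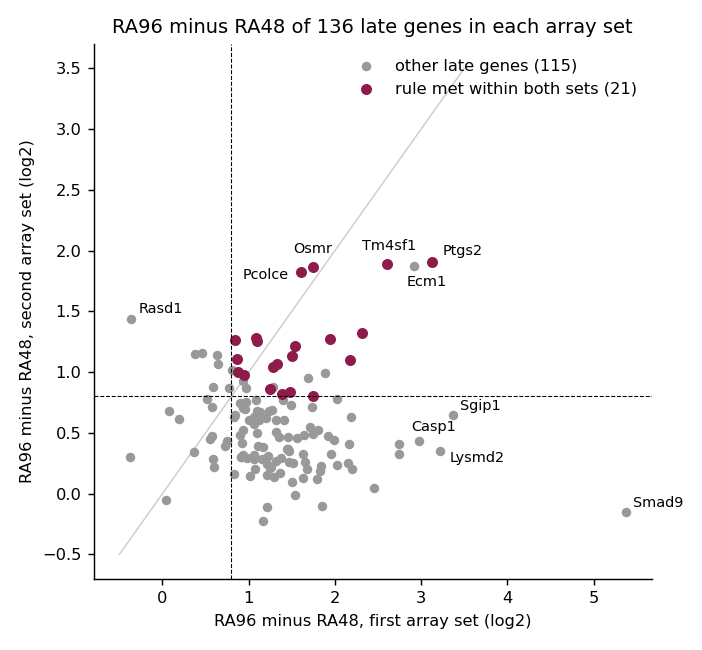
Difference between RA96 and RA48 within the first array set (horizontal) and the second (vertical), in log2, for the 136 late genes. Dashed lines mark 0.8, the pale line marks equal differences, and the 21 coloured genes met the whole rule in both sets, while Smad9 shows 5.38 in the first set and -0.15 in the second.

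Over all arrays the rise from RA48 to RA96 ran from 0.80 to 3.45 with a median of 1.00, against -0.03 for all genes. It reached 1 in 69 late genes and 2 in 7, namely Smad9, Ecm1, Tm4sf1, Casp1, Lysmd2, Sgip1 and Ptgs2. Some of the largest averages came from the sets. Smad9, a receptor-activated Smad of the BMP branch, topped the order at 3.45, yet its RA48 arrays read -4.18, -4.38 and -4.24 in the first set and 1.93 and 2.69 in the second. The Control arrays were split in the same way, between -4.56 and -4.13 in the first set and between 0.51 and 1.05 in the second. In RA96 Smad9 lay between 0.95 and 2.41 in all 6 arrays, so the late rise was seen in the first set alone.

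Casp1, the protease that activates interleukin-1 beta, gave 2.97 in the first set and 0.43 in the second. Lysmd2, a LysM-domain gene, gave 3.22 and 0.35, and Sgip1, an endocytic adaptor, 3.37 and 0.65. In the 2 RA48 arrays of the second set these 3 genes exceeded Control by an average of 1.62, 1.74 and 1.34. Myl2, a regulatory light chain of heart myosin (2.74 and 0.41), Pex11a, a peroxisome division factor (2.75 and 0.33), Ppic, a cyclophilin (1.88 and 0.99), and Invs, the ciliary protein inversin (2.02 and 0.78), were likewise larger in the first set.

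The thresholds cut through a continuum. Just inside the rise of 0.8 stood Hars2 (0.8007), Pwwp3b (0.8012) and Syne4 (0.8019), and just outside it Lama4 (0.7995), Selenow (0.7975) and Ssbp2 (0.7971). At the upper end of the 48 h window Clca3a1 (0.3981), Tgds (0.3789) and Ica1 (0.3782) were inside, and Septin7 (0.4030), Coq10b (0.4146) and Ptn (0.4257) outside. At the lower end Ddr2 (-0.3971), Rasd1 (-0.3885) and Ecrg4 (-0.3670) were inside, and Adamts6 (-0.4180), Hook1 (-0.4269) and Ifi202b (-0.4350) outside.

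For most late genes the difference between Puromycin and RA96 did not pass limma's test, and a minority went further up. This comparison asks what became of the late genes once cells without an active Acta2 promoter had been exposed to the drug. The Puromycin arrays are new to the choice of genes, but the RA96 arrays that helped to choose them are shared. Of 136 late genes, 17 were higher in Puromycin than in RA96 and 4 lower in limma's test across all 17863 rows (Benjamini-Hochberg adjusted p under 0.05). That is 12.5% and 2.94% of them, where 3.17% and 2.1% of all rows were called. At an unadjusted p under 0.05 there were 32, a count not made over all rows. The median difference was -0.13, against -0.01 for all genes, with 97 late genes below RA96 and 39 above. The rule favoured high values in the RA96 arrays, so lower values are expected on average in arrays it did not use. The 4 lower calls carry the same limit, at a share near that of all rows. No decline after selection is read from them, from that median or from the split.

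The balance of higher and lower calls depended on the arrays, with 12 late genes higher and 11 lower in the first set alone. There were 20 and 9 in the second set, and 19 and 10 with array weights, for which all rows were not counted. The 17 higher and 4 lower genes had the same direction in both array sets, and 9 and 3 of them were called within each set, where limma called 4.92% of all rows higher and 4.55% lower in the first set and 5.26% and 3.91% in the second. Puromycin and RA96 arrays did not overlap for 12 of the 17 and 3 of the 4. Overlap was not counted over all rows, so these counts are not read as particular to late genes. In a fit that treated arrays of 1 group and set as repeats of each other, with 8 such clusters, Clca3a1 was the only late gene called higher (adjusted p = 0.00252) and 0 were called lower, at 0.0448% and 0.0504% of all rows, so the other calls rest on counting arrays as separate samples. Whether replicates came from separate cultures is not labelled, so the p-values here measure the spread between arrays, which may be technical.

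Clca3a1, a member of a secreted family that regulates calcium-activated chloride channels, rose most (chr3:144729677-144760977). It read 2.47, 2.50, 2.55, 2.48, 2.08 and 2.25 in the Puromycin arrays, against 0.00, -0.24, -0.02, -0.47, -0.71 and -0.06 in the RA96 arrays. The 2 groups did not overlap, and Control lay lower still, at -2.35 to -1.31. The difference of 2.64 ± 0.17 (SE), a 6.23-fold change, had an adjusted p of 4.28e-09, and it was 2.52 and 2.64 within the sets. The genome holds close relatives of this gene beside it, and which of them the probe reads was not tested. Clca3a1 missed the 48 h window in the first set, with RA48 minus Control at 0.48.

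Ptgs2 rose by a further 2.44 ± 0.53, a 5.41-fold change (limma adjusted p = 0.00655). The arrays overlapped between the groups over all arrays and not within either set. Within the first set Puromycin read 6.53, 6.57 and 6.48, against 4.02 and 4.36 in RA96, and within the second 3.83, 3.98 and 4.37, against 2.69, 1.98, 2.04 and 2.05. The differences within the sets were 2.33 and 1.87 and both were called. Pla2g4a, the cytosolic phospholipase that frees arachidonic acid for the cyclooxygenase, lies 138741 bases from Ptgs2 on chromosome 1 and was 0.72 ± 0.20 higher in Puromycin (adjusted p = 0.0401). Its difference was 0.94 in the first set and 0.41 in the second (adjusted p = 0.148), and the call was lost on leaving out any of RA96 replicates 3 to 6 or Puromycin replicates 1 to 3, with adjusted p up to 0.115.

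Tm4sf1, Vcam1 and Il1r1, which sit on the cell surface, rose further as well. Tm4sf1 read 1.77, 1.68, 1.45, 2.26, 2.34 and 2.39 in Puromycin, against 0.22, 0.14, -0.03, 0.69, -0.21 and -0.30 in RA96, a difference of 1.90 ± 0.25 (limma adjusted p = 6.13e-05). Vcam1, the adhesion molecule that binds integrins of white blood cells, read -0.80, -0.69, -0.79, -0.38, -0.48 and -0.41 in Puromycin, against -2.15, -1.59, -2.06, -2.50, -2.51 and -2.25 in RA96 (difference 1.59 ± 0.22, adjusted p = 0.000102). Il1r1, the signalling receptor for interleukin-1, read 0.96, 1.01, 0.91, 0.77, 0.81 and 0.85 in Puromycin, against -0.04, 0.16, -0.09, -0.45, -0.25 and -0.36 in RA96 (difference 1.05 ± 0.26, adjusted p = 0.0149). None of these 3 genes overlapped between the groups. Tm4sf1 met the late rule within both sets, Il1r1 within the first alone and Vcam1 within neither. For Il1r1 in the second set, RA48 minus Control was 0.52 and RA96 minus RA48 0.63. For Vcam1, RA48 minus Control was -0.42 in the first set and RA96 minus RA48 0.46 in the second. Vcam1 stayed below the embryo pool throughout. Osmr differed by 0.81 ± 0.31 without passing the test over all arrays (adjusted p = 0.153), although its lowest Puromycin array, at 1.29, stood above its highest RA96 array, at 1.03. With only the Puromycin and RA96 arrays in the fit its adjusted p was 0.00629.

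**Figure D3:**
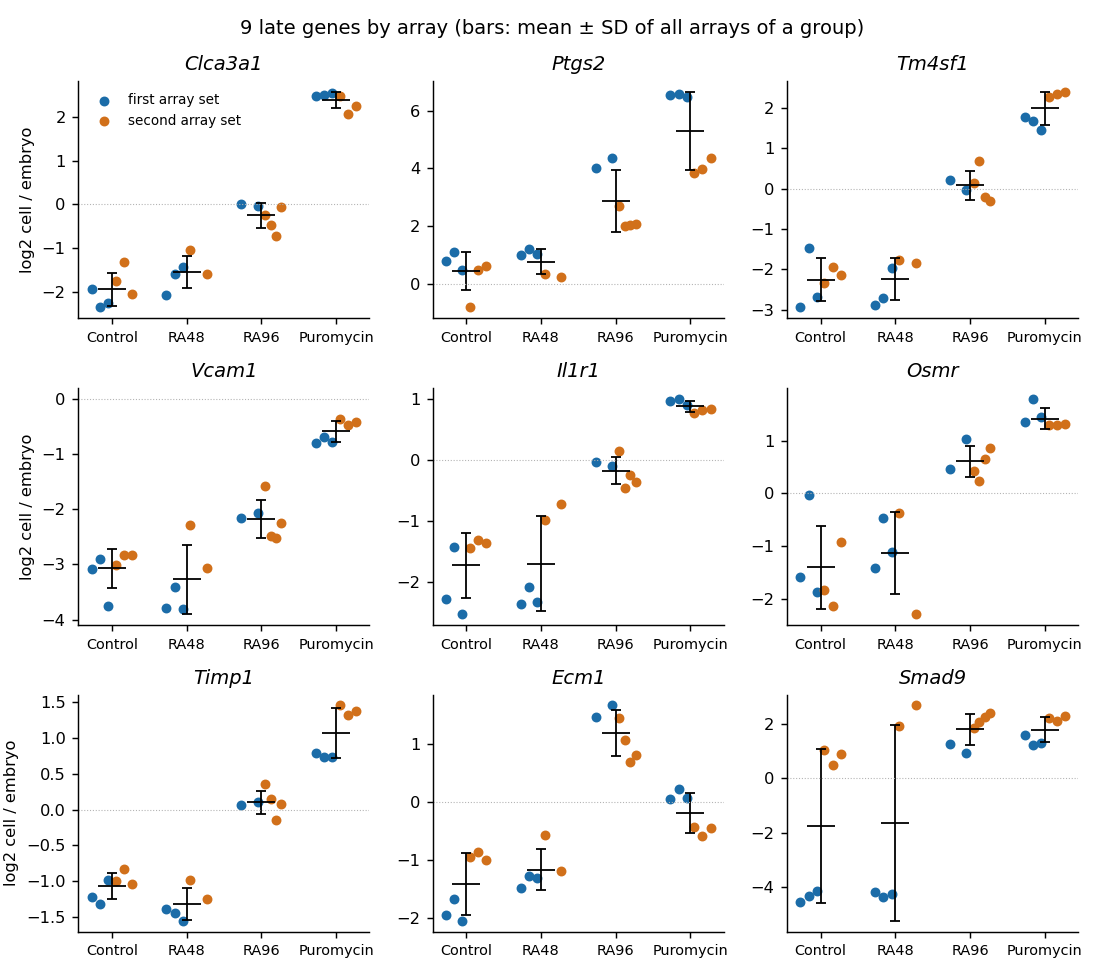
Levels (log2 of A404 cells over embryo pool) of 9 late genes in every array, at the 4 points of the protocol, with the first array set in blue and the second in orange and bars for the mean ± SD of a group. Clca3a1 in Puromycin lies between 2.08 and 2.55, above all other arrays, and Smad9 splits by set in Control and RA48.

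Promoters are shown for the largest called risers with a RefSeq window and a motif match, since these genes moved in 1 direction across puromycin selection. Timp1 is described below. The windows run from 250 bases before a RefSeq start, the nearest to the annotated start of the gene, to 50 after it. They are on GRCm38.p6 and read 5′ to 3′ on the strand of the gene. They are Clca3a1 (chr3:144760928-144761227, minus strand), Ptgs2 (chr1:150099781-150100080, plus strand), Il1r1 (chr1:40224830-40225129, plus strand) and Timp1 (chrX:20869916-20870215, plus strand), with matches to the searched motifs in capitals.
Clca3a1: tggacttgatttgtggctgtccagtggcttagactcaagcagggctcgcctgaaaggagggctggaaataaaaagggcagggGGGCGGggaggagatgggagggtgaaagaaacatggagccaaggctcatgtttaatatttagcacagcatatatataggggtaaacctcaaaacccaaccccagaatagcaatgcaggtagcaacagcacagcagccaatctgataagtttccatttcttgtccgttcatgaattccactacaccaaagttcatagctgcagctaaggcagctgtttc
Ptgs2: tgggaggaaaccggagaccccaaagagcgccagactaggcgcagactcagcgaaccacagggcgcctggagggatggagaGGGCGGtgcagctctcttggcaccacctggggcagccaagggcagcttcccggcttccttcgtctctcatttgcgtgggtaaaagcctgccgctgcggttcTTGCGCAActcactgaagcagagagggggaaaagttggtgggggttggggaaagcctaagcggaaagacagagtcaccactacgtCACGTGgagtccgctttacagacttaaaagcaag
Il1r1: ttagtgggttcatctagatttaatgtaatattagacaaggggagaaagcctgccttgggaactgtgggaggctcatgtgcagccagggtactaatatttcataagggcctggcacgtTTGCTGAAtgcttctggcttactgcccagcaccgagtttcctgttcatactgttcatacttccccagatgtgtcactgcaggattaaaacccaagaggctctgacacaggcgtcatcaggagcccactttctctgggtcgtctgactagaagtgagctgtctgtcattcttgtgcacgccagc
Timp1: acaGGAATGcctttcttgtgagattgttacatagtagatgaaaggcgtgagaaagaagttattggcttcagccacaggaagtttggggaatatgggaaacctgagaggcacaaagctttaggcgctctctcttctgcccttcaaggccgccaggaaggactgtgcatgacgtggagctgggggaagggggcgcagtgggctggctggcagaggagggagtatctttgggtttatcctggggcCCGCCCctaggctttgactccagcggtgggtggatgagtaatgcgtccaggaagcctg
Ptgs2 held a GC box (GGGCGG) at -170, a match to the C/EBP motif (TTGCNNAA) at -69 and a CACGTG E-box at 16, counted from 0 at the start. Clca3a1 held a GC box at -168, Il1r1 a C/EBP match at -133 and Timp1 a GGAATG match to the TEAD motif at -247 and a GC box on the other strand at -8. Tm4sf1, whose window was searched too, held none of the motifs. That window (chr3:57301939-57302238, minus strand) lies inside the annotated gene (chr3:57285611-57387736). The Il1r1 window likewise lies inside its gene, which is annotated from 40222480. For these genes the matches do not cover the annotated start. A match is a run of letters and does not show that a factor binds.

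Matrix and protease genes split in direction. Timp1, an inhibitor of matrix metalloproteinases (chrX:20870166-20874737), read 0.79, 0.73, 0.73, 1.45, 1.31 and 1.37 in Puromycin, against 0.06, 0.36, 0.11, 0.15, -0.15 and 0.08 in RA96. The groups did not overlap, and the difference was 0.97 ± 0.14 (limma adjusted p = 0.000127). Plod2, the lysyl hydroxylase that sets collagen cross-links, was 0.75 ± 0.20 higher (adjusted p = 0.0317), but by 0.15 in the first set (adjusted p = 0.334) and by 1.36 in the second, a contrast that was not itself tested. Its call was lost on leaving out RA96 replicate 1, 2 or 5 or Puromycin replicate 4, 5 or 6, with adjusted p up to 0.0756.

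Ecm1, a secreted matrix glycoprotein, went the other way (chr3:95734147-95739876). It read 0.05, 0.22, 0.06, -0.44, -0.58 and -0.45 in Puromycin, against 1.46, 1.44, 1.66, 1.06, 0.69 and 0.81 in RA96. Every Puromycin array lay below every RA96 array, and the difference was -1.37 ± 0.23, or 2.59-fold lower (limma adjusted p = 0.000727). Ecm1 in Puromycin stayed 1.22 ± 0.23 above Control, where it had -2.05 to -0.86, by 2.00 in the first set and by 0.45 in the second, where the test was not passed (adjusted p = 0.0825). Over all arrays Ecm1 was thus highest at 96 h, a time point whose high values the rule favoured. In the first set it missed the 48 h window, with RA48 minus Control at 0.53, against 0.06 in the second. Adamtsl1, an ADAMTS-like matrix protein without a protease domain, was 0.81 ± 0.18 lower in Puromycin than in RA96 (limma adjusted p = 0.00823). Its arrays lay between -0.06 and 0.33 in Puromycin, against 0.54 and 1.74 in RA96. The rule favoured high RA96 values in this gene too.

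The other lower genes were Robo1, a receptor for Slit guidance cues, and Nppa, the precursor of atrial natriuretic peptide. The rule favoured high RA96 values in both. Robo1 read 0.15 to 0.56 in Puromycin, against 0.70 to 1.20 in RA96 (difference -0.74 ± 0.12, limma adjusted p = 0.000747). Its difference from Control was -0.21 and did not pass the test over all arrays (adjusted p = 0.171), but it was called lower in the first set alone (-0.39, adjusted p = 0.0025), with -0.04 in the second. Nppa read 0.12 to 0.32 in Puromycin, against 0.29 to 0.71 in RA96, with RA96 replicate 2 inside the Puromycin range, and differed by -0.39 ± 0.08 (adjusted p = 0.00463). Within the sets its differences were -0.38 and -0.39 with adjusted p of 0.0553 and 0.0546.

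Dusp4, Nupr1 and Zyx were also higher. Dusp4, a phosphatase that turns off MAP kinases, read 3.74, 3.83, 3.76, 2.78, 2.68 and 2.71 in Puromycin, against 2.72, 2.35, 2.85, 1.48, 1.45 and 1.41 in RA96. The groups overlapped, with the first set higher in both, and the difference was 1.21 ± 0.27 over all arrays (limma adjusted p = 0.00771), 0.99 in the first set and 1.05 in the second. With only the 2 groups in the fit the adjusted p was 0.0579. Dusp4 met the late rule within neither set. Its RA48 minus Control was -0.58 in the first set, and its RA96 minus RA48 was 0.71 in the second. Nupr1, a small nuclear protein induced by stress, read 1.69 to 2.02 in Puromycin, against 0.73 to 1.30 in RA96 (difference 0.81 ± 0.13, adjusted p = 0.000442). Zyx, the focal adhesion protein zyxin, read 1.04 to 1.49 in Puromycin, against 0.71 to 0.88 in RA96 (0.46 ± 0.10, adjusted p = 0.00606), with 0.23 in the first set (adjusted p = 0.149).

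Named after their values were seen, the remaining higher genes were Prkar2a, a regulatory subunit of protein kinase A (0.70 ± 0.10), Nr3c1, the glucocorticoid receptor (0.69 ± 0.12), Rbl2, a pocket protein of the retinoblastoma family (0.68 ± 0.20), Cdo1, cysteine dioxygenase (0.55 ± 0.13), Lratd2 (0.50 ± 0.11) and Mpc1, a subunit of the mitochondrial pyruvate carrier (0.28 ± 0.07). Nr3c1 read -0.43, -0.35, -0.30, -0.23, -0.29 and -0.32 in Puromycin, against -0.92, -0.91, -0.97, -1.06, -1.07 and -1.10 in RA96. Both of its probes moved the same way, by 0.60 and 0.78. The call of Rbl2 (adjusted p = 0.0466) was lost on leaving out any of 15 arrays, namely Control replicate 2, 3, 4 or 6, RA48 replicate 1, 2 or 3, RA96 replicate 1, 2, 3, 5 or 6, or Puromycin replicate 1, 2 or 3. That of Mpc1 (adjusted p = 0.0237) was lost without RA96 replicate 2 or 5 or Puromycin replicate 2, 3 or 4. Lratd2 differed by 0.04 in the first set and 0.84 in the second.

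**Figure D4:**
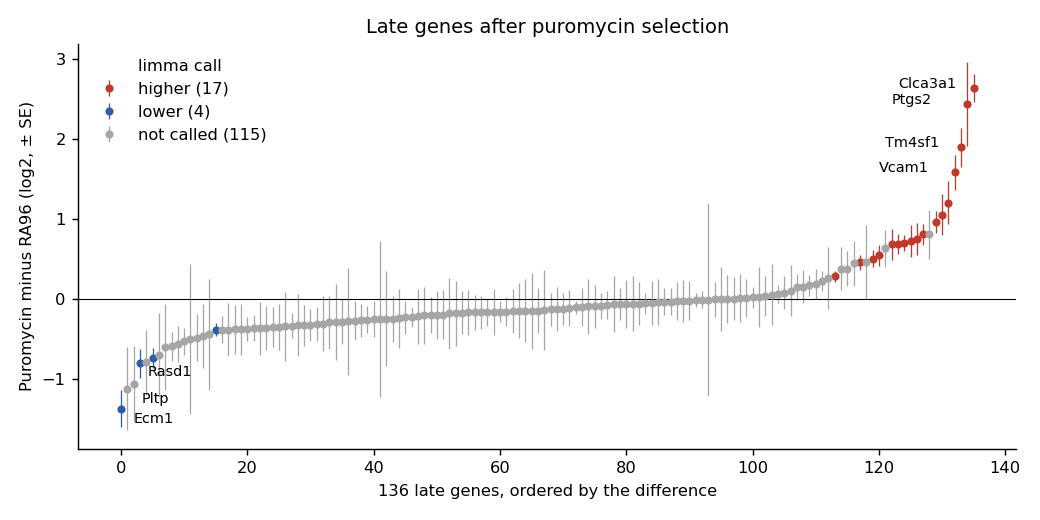
Difference between Puromycin and RA96 (log2, with SE) for each of the 136 late genes in order of size, coloured by limma's call across all rows. Clca3a1, Ptgs2, Tm4sf1 and Vcam1 stand highest at 1.59 to 2.64, and Ecm1 lowest at -1.37.

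After puromycin most late genes were still far above undifferentiated cells. This comparison asks how far the late genes stood above Control in the selected cultures. It shares the Control arrays with the choice of genes, and the rule puts the RA96 mean of every late gene above Control. Puromycin cultures had the same 96 h of retinoic acid, so an excess over all rows is partly built in by the choice. In Puromycin 111 of 136 late genes were higher than in Control and 0 lower (limma adjusted p under 0.05). That is 81.6% called higher, where 19.8% of all rows were called higher and 26.4% lower. At an unadjusted p under 0.05 there were 117, a count not made over all rows. The median difference was 1.05, against -0.06 for all genes. All 111 lay above Control in both array sets and 97 were called in each, where 26% of all rows in the first set and 19.7% in the second were called higher. The fit with group and set as clusters called 51 late genes higher, and 8.77% of all rows.

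Ptgs2 stood 4.86 ± 0.53 above Control after puromycin, Clca3a1 4.33 ± 0.17 and Tm4sf1 4.24 ± 0.25. Osmr (2.81 ± 0.31), Il1r1 (2.60 ± 0.26), Vcam1 (2.48 ± 0.22), Ppic (2.36 ± 0.39), Nupr1 (2.34 ± 0.13) and Timp1 (2.13 ± 0.14) followed, each with an adjusted p of at most 3.17e-05. Smad9 stood 3.56 ± 1.21 above Control (adjusted p = 0.0198), but 5.72 in the first set and 1.39 in the second, and the call was lost without Control replicate 1, 2 or 3. Of the 25 late genes not called, 22 still averaged above Control, and Rasd1, a Ras-related G protein induced by glucocorticoids (-0.45 ± 0.47, adjusted p = 0.456), Robo1 and Pltp, the phospholipid transfer protein (-0.12 ± 0.52, adjusted p = 0.875), averaged below it. In RA96 Rasd1 read 2.15, 2.64, 2.12 and 1.30 in the second set and -0.22 and -0.48 in the first, where it did not exceed RA48.

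The next counts set the late genes against the whole embryo pool. The required rise of 0.8 builds in the step between RA48 and RA96, so they are a description. The number of late genes with a mean above 0 was 40 in Control, 46 in RA48, 91 in RA96 and 92 in Puromycin, and their median levels were -0.41, -0.34, 0.75 and 0.68. Over all genes 49.9%, 54.1%, 52.6% and 52.0% had a mean above 0 in the same order. All arrays of the group were above the pool for 21, 13, 77 and 84 late genes. That count was not made over all genes, so nothing particular to the late genes is read from it.

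Of the 136 late genes, 32 (23.5%) were on any of 12 lists of genes for this system, where 7.08% of all genes with a symbol were. The lists were drawn up with earlier results of these data known, so this share is no independent evidence. The other 104 were on none, and 15 had clone or predicted names. The lists are described by their counts in the comparisons with Puromycin, beside the backgrounds given above, and since Puromycin minus Control shares Control arrays with the rule, nothing particular to a list is read from them.

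Contractile and cytoskeletal genes gave 4 late genes of 57 measured: Nexn, the actin-binding protein nexilin, Zyx, Actn3, a skeletal muscle alpha-actinin, and Tnnc1, troponin C of slow and cardiac muscle. In this list 37 genes rose and 2 fell in Puromycin relative to Control, with a median of 0.91, and 4 rose and 2 fell relative to RA96. Nexn read 0.01 to 0.47 in Puromycin, against -2.15 to -0.74 in Control (difference 1.66 ± 0.22, limma adjusted p = 2.4e-06). Actn3 rose by 1.20 ± 0.13 relative to Control, from arrays that did not overlap. Tnnc1 differed by 0.91 ± 0.47 (adjusted p = 0.122), and with the replicate number as a block the adjusted p was 0.00125. Its Puromycin arrays were between -2.96 and -2.80 in the first set and between -1.45 and -1.23 in the second.

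Nppa, Myl2 and Tnnc1 are genes of heart muscle, and so the heart and skeletal muscle markers are given beside them. Of 8 listed markers 6 were measured, their medians were -0.78 in Control, -1.01 in RA48, -1.15 in RA96 and -1.06 in Puromycin, and 1 stood above the embryo pool in RA96 and in Puromycin. Tnnt2, cardiac troponin T, averaged -1.48, -1.55, -1.46 and -1.14 in the same order. Nppa in Puromycin was 0.67 ± 0.08 above Control (limma adjusted p = 4.46e-07) and Myl2 1.82 ± 0.48 (adjusted p = 0.00353).

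Matrix and matricellular genes gave 4 of 56 (Ecm1, Pcolce, Plod2 and Col1a1), and 31 of the list rose and 3 fell in Puromycin relative to Control, against 5 and 2 relative to RA96. Col1a1, the main chain of fibrillar collagen, read -1.55, -1.35, -1.45, -0.43, -0.67 and -0.69 in Puromycin, against -3.26, -1.22, -3.10, -2.23, -2.37 and -2.39 in Control. Control replicate 2, at -1.22, overlapped the Puromycin range, and the difference was 1.41 ± 0.28 (limma adjusted p = 0.000297), with 1.08 in the first set alone (adjusted p = 0.0528) and 1.74 in the second. Among extracellular proteases and inhibitors 3 of 34 were late (Timp1, Adamtsl1 and Plau), with 19 of the list higher and 3 lower than Control and 6 and 2 relative to RA96. Plau, the urokinase plasminogen activator, read 0.89 to 1.10 in Puromycin, against 0.13 to 0.59 in Control (0.62 ± 0.13, adjusted p = 0.000628).

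Adhesion and cell surface receptors gave 5 of 65 (Tm4sf1, Vcam1, Agtr2, Itgav and Cdh3), with 36 of the list higher and 10 lower than Control in Puromycin and 5 and 4 relative to RA96. Itgav, the integrin alpha-V chain, read 0.57 to 0.86 in Puromycin, against -1.19 to -0.11 in Control (1.34 ± 0.17, limma adjusted p = 1.14e-06). Its probes differed at 48 h, with RA48 minus Control at 0.59 and 0.09. In the first set Itgav missed the 48 h window, at 0.54. Agtr2, the type 2 angiotensin receptor, differed by 0.91 ± 0.50 (adjusted p = 0.149) and by 1.24 and 0.57 within the sets, and with the replicate number as a block the adjusted p was 0.0053. Its first-set arrays were the lower ones in all groups, with -3.48 to -3.37 in Puromycin, against -5.46 to -3.87 in Control. Growth factors, cytokines and their receptors gave 3 of 81 (Osmr, Il1r1 and Angpt2), with 39 and 9 of the list higher and lower than Control and 11 and 7 relative to RA96. Angpt2, a ligand of the Tie2 receptor, was 0.82 ± 0.25 above Control (adjusted p = 0.00993).

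TGF-beta, BMP and activin genes gave 2 of 40, Smad9 and Tgfbr2, with 20 of the list higher and 7 lower than Control in Puromycin and 4 and 4 relative to RA96. Tgfbr2, the type II receptor of TGF-beta, read -0.18 to 0.22 in Puromycin, against -1.88 to -0.95 in Control (1.36 ± 0.19, limma adjusted p = 3.51e-06). Its 2 probes agreed on the rise at 96 h (1.10 and 0.99) and not on Puromycin minus RA96 (-0.33 and 0.70).

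Transcription factors gave 5 of 88 (Prrx1, Snai2, Emx2, Nfib and Nr3c1), with 54 of the list higher and 7 lower than Control in Puromycin and 10 and 3 relative to RA96. Prrx1, a homeodomain factor of mesenchyme, stayed below the embryo pool, with -2.25 to -0.95 in Puromycin, against -3.76 to -2.96 in Control (1.76 ± 0.27, limma adjusted p = 1.24e-05). Snai2, the zinc-finger factor Slug of epithelial to mesenchymal transition, read -0.12 to 0.15 in Puromycin, against -1.57 to -0.93 in Control (1.28 ± 0.12, adjusted p = 9.52e-09), and was alike in both sets (1.46 and 1.11). Emx2, a homeodomain factor of forebrain and urogenital tissue, read 0.39 to 0.85 in Puromycin, against -1.78 to 0.37 in Control (1.69 ± 0.23, adjusted p = 2.97e-06). Nfib, a nuclear factor I protein, rose by 0.93 ± 0.16. Markers of fibroblasts and mesenchyme had medians of -1.87 in Control, -1.61 in RA48, -1.45 in RA96 and -1.02 in Puromycin over 5 of 8 genes measured, with 0 above the embryo pool. Col1a1, itself a late gene, set the Puromycin median, and the other 4 averaged lower in Puromycin than in RA96, Dcn with -2.15 against -1.45, Col1a2 with -1.72 against -1.46, Twist1 with -0.28 against -0.14 and Col3a1 with -0.53 against -0.49. The part of these markers in the late genes' values was not tested.

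Pde4b and Sh3rf1 act in signalling inside the cell. Pde4b, a phosphodiesterase that breaks down cyclic AMP, read 0.46 to 0.73 in Puromycin, against -0.83 to -0.04 in Control (0.92 ± 0.15, limma adjusted p = 4.43e-05). Sh3rf1, a scaffold of JNK signalling, rose by 0.94 ± 0.20, but only 1 of its 2 probes carried the rise between 48 h and 96 h (1.63 and 0.10).

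Metabolic, lipid and detoxifying enzymes gave 3 of 53 (Ptgs2, Pltp and Fabp4), with 17 of the list higher and 12 lower than Control in Puromycin and 8 and 7 relative to RA96. Fabp4, a fatty acid carrier of fat cells and macrophages, lay far below the embryo pool in every array, between -5.32 and -2.55 in Puromycin and between -5.67 and -3.54 in Control. Pltp differed between Puromycin and RA96 by -1.12 ± 0.52 without passing the test (limma adjusted p = 0.266), and it was called lower within both sets (-0.52 and -0.99) and with the replicate number as a block (adjusted p = 0.00668). YAP and TEAD target genes gave 1 of 27, interferon, complement and immune genes 1 of 36 and neural genes 0 of 38. In these lists 19, 8 and 8 genes rose and 1, 5 and 10 fell in Puromycin relative to Control, and 3, 2 and 0 rose and 0, 1 and 2 fell relative to RA96.

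The late genes lay on many chromosomes of GRCm38.p6. No chromosome held more than 12 late genes, the number on chromosome 3, which is 8.82% of them against 5.16% of all genes.

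The promoters of late genes held the searched motifs about as often as promoters at large. RefSeq windows matched 100 of the 136 by gene identifier, and the window nearest the annotated start was taken for each. They were set against 32851 windows of all genes, where a gene could have several, with both strands read. TATAAA occurred in 13.0% against 13.6%, the AP-1 motif TGANTCA in 9.0% against 7.81%, the C/EBP motif in 12.0% against 10.8% and CACGTG in 8.0% against 7.15%. The TEAD motif GGAATG occurred in 17.0% against 14.7%, GGGCGG in 42.0% against 35.7%, the NF-kappa-B motif in 2.0% against 1.63% and the CArG box, which binds serum response factor, in 3.0% against 1.63%. The motifs were settled after the sequences had been seen, and no test was made.

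For 117 late genes a level came from 1 probe. Of the 19 with more, 16 had all probes above 0 in RA96 minus RA48 and 9 had all at 0.8 or more. Nexn (0.93 and 1.25), Plod2 (1.17 and 1.17) and Mtus1 (1.13 and 1.06) were even between probes, whereas Tbc1d10b (1.78 and -0.14) and Ncapd3 (2.39 and -0.24), named after their values were seen, were late genes by 1 of their 2 probes.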

How the data were processed

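RNA of A404 cells (Cy5) and of pooled whole embryos (Cy3) was hybridized without a dye swap and read on an Agilent G2565AA scanner with Feature Extraction A.6.1.1, per the labels. The authors deposited 1 table of log10 ratios, as read here from the range of the values; base, centring and direction are not stated, and the direction was taken from the dyes. Deposited values were divided by 0.30103 to give log2 ratios. Without spot intensities, which were not used here, the lowest detectable signal is unknown, and the number of arrays limits the precision. Of 21446 rows, 1166 without a gene and with few digits (5.44%) were left out as probable controls. Of 20280 probes, 11100 had 1 symbol in the platform annotation and were averaged per gene (1926 genes had several probes), 442 had several symbols and 8738 none. All 17863 rows had values in all arrays, and no filter on low values was used, so all 136 late genes were tested.

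Group means of the 23 arrays were fitted in 1 limma 3.58.1 model (R 4.3.3, statmod 1.5.0) with empirical Bayes and Benjamini-Hochberg adjustment over all rows, and an adjusted p under 0.05 was called. The fit was tested on simulated data with independent noise in each array. That noise held no array sets, so the test does not cover false calls that the sets may bring. Figures and counts used Python 3.11.15, pandas 2.3.3, numpy 2.4.6 and matplotlib 3.10.9. The late genes, the 12 lists, the marker lists and the settings were chosen with earlier results of these data known. The counts of 1 of the 12 lists are not reported here. Named genes were the 15 with the largest RA96 minus RA48, the 10 largest called rises and falls in Puromycin minus RA96, up to 4 per list and 3 on each side of each threshold (51 late genes), with Acta2, Cnn1 and Sox2 as landmarks. Other names are marked as chosen after their values were seen. Alternatives were other normalizations, array sets, fits, thresholds and each array left out. Deviations of same-numbered Puromycin and Control arrays correlated at 0.298 to 0.490 in all 6 pairs. These numbers follow the array sets in both groups, so the correlations do not show pairing by number, and the main fit used none.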

Additional observations from a re-analysis of the deposited data

Results flagged for a closer look

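In 9 of 204 groups of arrays of the named late genes, 1 array stood apart from the rest by Dixon's test, where chance gives about 1 in 20. Ptgs2 read -0.83 in Control replicate 4, with the other Control arrays between 0.48 and 1.10. Vcam1 read -3.76 in Control replicate 3 (others -3.09 to -2.83), Emx2 0.37 in Control replicate 2 (others -1.78 to -1.09), and Rasd1 2.00 in Control replicate 6 (others 0.06 to 0.69). In RA96, Pwwp3b read 1.43 in replicate 5 (others 2.06 to 2.40). In Puromycin, Tnfsf13b read 0.93 (others 1.48 to 1.68) and Tgds, an enzyme gene, 1.23 (others 1.78 to 2.06), both in replicate 4. Also in Puromycin, Osmr read 1.79 in replicate 2 (others 1.29 to 1.44) and Tgfbr2 0.22 in replicate 5 (others -0.18 to -0.04). What set these arrays apart was not tested.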

How the results depend on the processing

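The number of late genes depends on the arrays and thresholds. It was 202 by the first set alone (92 shared with the 136), 64 by the second (30 shared), 58 with thresholds of 0.3 and 1, 296 with 0.5 and 0.6, and 1 with the deposited values read as log2. Leaving out 1 array gave 92 to 188, with 92, 101 and 97 without RA48 replicate 1, 2 or 3 and 188 and 184 without replicate 4 or 5. With the array set as a block, chosen after seeing the data, it was 100, of which 86 were shared.

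Of late genes higher in Puromycin than in RA96 (17), 1 was left with group and set as a random block, 11 at an adjusted p under 0.01, and 13 to 17 on leaving out arrays. Of late genes lower (4) there were 7 with the array set as a block, 11 and 9 in the first and the second set alone, 0 with the random block, 7 with the replicate block, 10 with array weights and 4 to 6 on leaving out arrays. The median of -0.13 ran from -0.17 to -0.05 on leaving out arrays. The 111 above Control became 51 with the random block and 103 to 114 on leaving out arrays, and the 0 lower became 3 in the first set alone (Syne4, Robo1 and Pltp). Syne4 in Puromycin minus Control reversed to -0.60 in the first set alone (adjusted p = 0.00483). The replicate block gave 17 higher than RA96 and 120 higher than Control. Among named genes it changed the calls of Tnnc1 and Agtr2 against Control and of Pltp against RA96, and no other. Same-numbered Puromycin and RA96 arrays correlated at -0.379 to 0.675, over 0.1 in 5 of 6 pairs, and these groups were not taken as paired either. Calls over all rows were counted only for the main fit, each set alone and the random block. Calls lower than Control were counted over all rows for the main fit only. The other counts are thus not read as particular to late genes.

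With few arrays per group and set, differences within a set rest on as few as 2 arrays against 3, and the fits with sets are optimistic because the sets came from the same residuals.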
